A study of Mus musculus with 158 samples.

Results

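The B cell RNA tables are 5 of the 17 RNA-seq samples of a series of 158 samples, and they were compared with the 4 tables each of liver, kidney and lung. Members were chosen by the tissue in the labels alone. All mice were F1 hybrids of C57BL/6J dams with sires of other inbred strains or species, with no engineered allele and no treatment. B cell replicate 1 was labelled B6xCAST, replicates 2 and 3 B6xPWK, replicate 4 B6xC3H and replicate 5 B6xSPRET. In each of the other tissues replicate 1 was B6xPWK, replicates 2 and 3 were B6xSPRET and replicate 4 was B6xC3H. The study's own sample list gives B6xC3H for B cell replicate 1, as it does for the downloaded solid tissues that the study elsewhere calls B6xCAST, and the label was used here. B cells were taken from the femoral marrow of female mice aged 8 weeks and were left after magnetic depletion of cells carrying CD43 or Mac-1/CD11b, so the gate removed other cells rather than selecting a B cell marker. The other samples were whole organs, which hold leukocytes of their own. Solid tissues were typically pooled from several mice. No label ties an RNA sample to an animal, so p-values measure the spread between these samples, which may be in part technical.

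B cells mature in the marrow under the transcription factors Ebf1 and Pax5, assemble immunoglobulin genes by V(D)J recombination, and display a receptor whose signal is tuned by kinases such as Lyn and by inhibitory coreceptors such as Cd22 and Cd72. Mature B cells present antigen on MHC class II, whose genes are switched on by Ciita. Many of these genes have another annotated gene on the other DNA strand, so that a read can be given to its own gene only if the strand of the library is read correctly.

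The tables held few counts for total RNA libraries. Expected counts summed over genes came to 285145 to 809317 in B cells (median 448131), 283708 to 322241 in liver, 437151 to 551255 in kidney and 380096 to 387481 in lung. Genes whose exons overlap those of a gene on the opposite strand took 78.3 to 85.2% of B cell counts, and the 10 highest genes of a library took 17.6 to 26.1%. Levels below are normalized CPM, which are library-scaled counts adjusted by TMM factors of 1.21 to 1.60 in B cells and 0.371 to 1.88 in the other tissues. B cell replicate 4 stood apart from the others. Pairs of B cell libraries without it differed by 7.26 to 9.06 times the counting variance per gene, and pairs with it by 15.2 to 25.6 times, so the main results where it is highest are also given without it, a choice made after its values were seen.

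The strand of the reads was examined first, because it decides which gene a count belongs to. In all 17 libraries the Tsix row held more counts than the Xist row, a pair chosen after its values were seen. Xist, transcribed from the inactive X chromosome, had 6 to 161 counts in B cells, and Tsix, annotated across it on the other strand, had 817 to 3358. The same reading held for genes that define B cells. In the B cell libraries Vpreb1, Vpreb2, Igll1 and Btk had no counts, Cd79a had 4 to 19, Ms4a1 had 3 to 8, Cd22 had 2 to 18 and Pax5 had 1 to 6. Other genes of the receptor and surface list had more on their own rows, with 7 to 45 counts of Ighm, 1 to 81 of Iglc3, 30 to 225 of Cd38 and 186 to 1174 of Cd72. Because several genes that define B cells had few counts or none on their own rows, each gene below is read with the gene on its other strand, here called its opposite gene. The strand setting used to count the reads is not given in the sources used here.

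Levels in B cells were also compared across the genome in TPM, which is scaled to gene length. Where a tested noncoding gene lay opposite a coding gene with overlapping exons, the noncoding gene was higher in 974 of 1136 pairs (85.7%). Among all tested genes with such an opposite gene, the tested gene was higher in 1978 of 2798 pairs (70.7%). The opposite gene did not have to pass the filter on counts, which favors the tested gene. These shares therefore only describe the tables and were not set against a test.

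**Figure D1:**
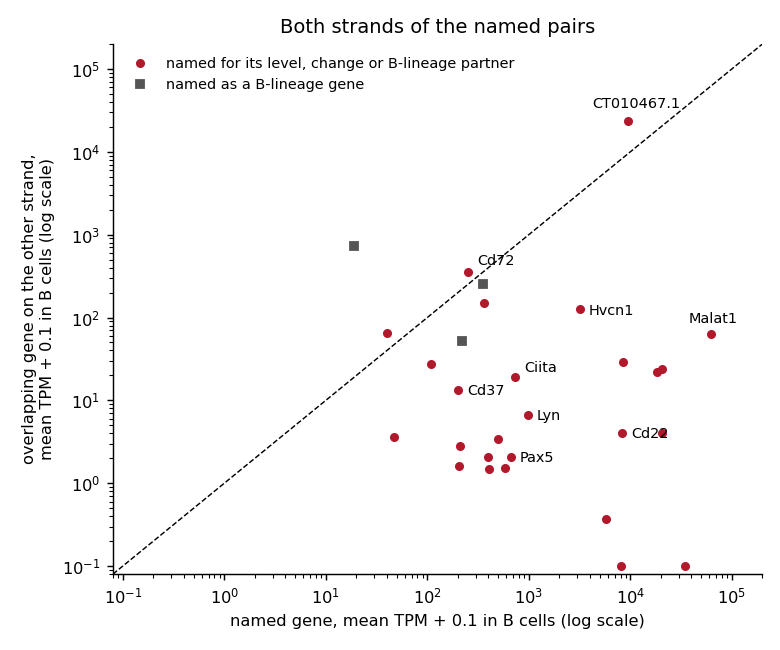
Mean TPM + 0.1 in B cells on log axes for each named gene whose exons overlap a gene on the other strand, leaving out genes named as lower in B cells (x axis), against the same value for the overlapping gene (y axis), with red circles for genes named for their level, change or B-lineage partner and gray squares for B-lineage genes read on their own rows. The dashed line marks equal levels, and most red points lie below it, such as Gm29439 at 8344 TPM against 3.95 for Cd22, while CT010467.1, Cd72 and Gm47205 lie above it.

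B cells were compared with the mean of the 3 other tissues on the log2 scale, in an edgeR quasi-likelihood fit of all 17 libraries over 4479 genes. In B cells 1468 genes were higher (32.8% of those tested) and 1349 lower (30.1%), at an adjusted p under 0.05. Against liver 1338 genes were higher (29.9%) and 1252 lower (28.0%), against kidney 1243 higher (27.8%) and 1460 lower (32.6%), and against lung 1128 higher (25.2%) and 1317 lower (29.4%). These comparisons share the B cell libraries, so their calls are not independent. The median log2 fold change over all tested genes was 0.01. Without B cell replicate 4, 1325 genes were higher and 1312 lower.

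Genes higher in B cells were read with their opposite genes. Of the 1468, 814 (55.4%) had an opposite gene with overlapping exons, compared with 62.9% of all tested genes and 71.5% of those lower in B cells. Among the 508 with a B cell mean of at least 100 CPM, 370 had such an opposite gene, and for 308 of these (83.2%) it was coding, compared with 80.4% of the opposite genes of all tested genes. Of all 4479 tested genes, 938 had B cell libraries that did not overlap the rest, with every B cell library above in 587 and below in 351. Lung was the highest of the tissues other than B cells for 875 of the 1468 genes (59.6%), compared with 44.7% of all genes tested. In whole organs fewer cells of a type and less RNA per cell cannot be told apart, and lung holds resident leukocytes, whose part in these values was not tested.

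**Figure D2:**
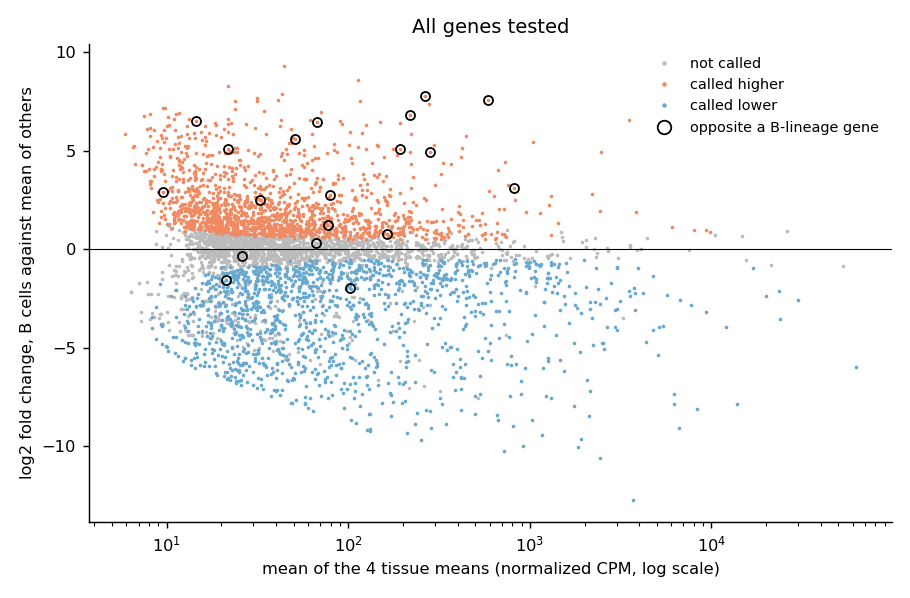
Log2 fold change of B cells over the mean of liver, kidney and lung (y axis) against mean normalized CPM over the 4 tissue means (x axis, log scale) for all 4479 tested genes, with genes higher or lower in B cells colored and the opposite genes of B-lineage genes circled. The circled genes lie mostly high in the plot, with a median of 3.09 against 0.01 for all genes.

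The 5 gene lists of the B lineage, which cover the receptor and surface, transcription factors, V(D)J recombination, MHC class II and leukocyte genes in general, held 82 genes. Of these, 28 had opposite genes with overlapping exons, 30 in number, of which 19 had enough counts to be tested. In B cells 15 of the 19 were higher, 2 were lower and 2 were not called, where 32.8% of all tested genes were higher and 30.1% lower, and the median log2 fold change was 3.09. Of the 82 genes on their own rows, 16 could be tested, of which 11 were higher and 2 lower (32.8% and 30.1% of all tested genes), with a median of 2.40. The other 66 listed genes and 11 opposite genes had too few counts in these tables. Because the filter keeps a gene that is high in any tissue, the members that passed are not a sample of their lists. Where overlap of gene bodies was used in place of exons, 22 of 27 tested opposite genes were higher in B cells.

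**Figure D3:**
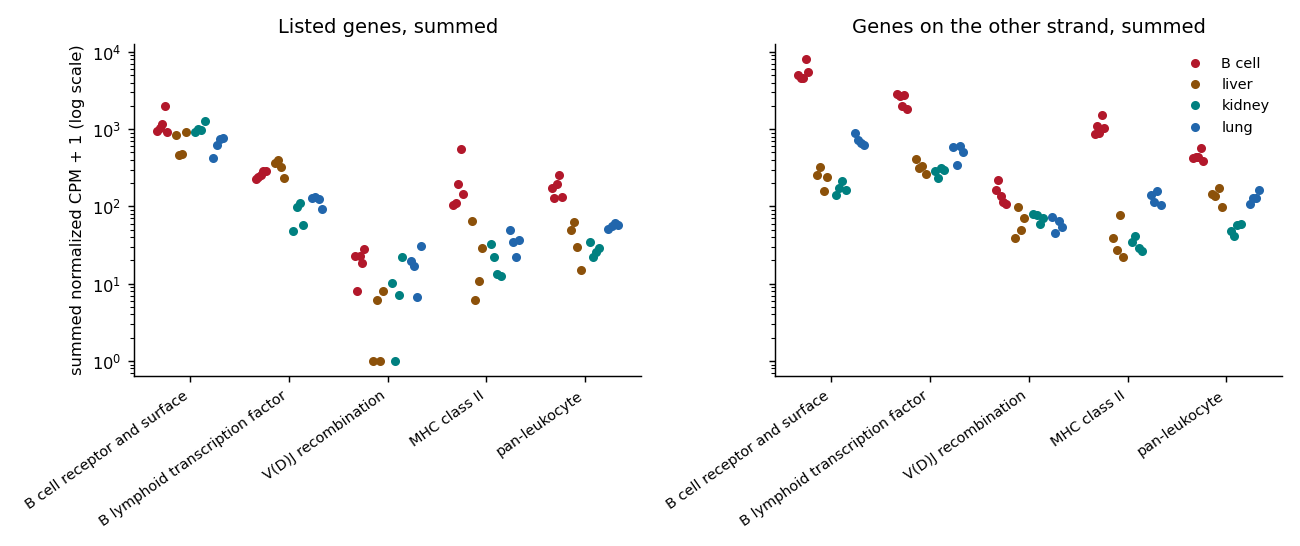
Summed normalized CPM + 1 of 5 gene lists (log scale) in each of the 17 libraries, for the listed genes at left and for their opposite genes at right, with 1 dot per library colored by tissue. For the receptor and surface list the opposite genes sum to 4565 to 8059 in B cells and to 141 to 903 in the other libraries, while the listed genes themselves overlap between B cells and kidney.

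The highest normalized CPM at a B cell gene was that opposite Hvcn1, which encodes a voltage-gated proton channel of lymphocytes. Hvcn1 is on none of the lists. Its opposite gene Tctn1 (ENSMUSG00000038593, chr5:122237848-122264460 of mm10, reverse strand), a component of the primary cilium, shares 1574 exonic bases with it. Tctn1 reached 9895, 9730.3, 11257, 23005 and 13279.7 normalized CPM in B cell replicates 1 to 5. It reached 48.5, 93.3, 58.2 and 91.5 in liver, 38.5, 74.3, 65.2 and 126 in kidney, and 482, 458, 505 and 754 in lung. Every B cell library was above every other, with replicate 4 highest and lung next after B cells. The log2 fold change was 6.53 ± 0.30 (SE, adjusted p = 3.83e-14), and pooled counts were 46.1-fold higher in B cells than in the 12 other libraries and 26.1-fold higher than in lung. Without replicate 4 the log2 fold change was 6.27 ± 0.27 (adjusted p = 4.29e-14) and the pooled difference 35.4-fold. Mean TPM in B cells was 3179 for Tctn1 and 126 for Hvcn1, below the 8344 of Gm29439 described next. Tctn1 was among the 10 genes with the highest mean CPM in B cells, and it alone of those 10 had B cell libraries that did not overlap the rest.

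Opposite genes of receptor and surface genes were higher in B cells in 4 of 4 tested, where 32.8% of all tested genes were higher. The most abundant were opposite Cd22, a sialic acid-binding inhibitory coreceptor, and Lyn, the Src-family kinase that phosphorylates it. Gm29439 (ENSMUSG00000101029, chr7:30872733-30873333, forward strand), an antisense RNA sharing 479 exonic bases with Cd22, had 1605, 1573, 1974, 4376 and 1897 normalized CPM in B cells. In lung it had 93.0, 63.5, 46.6 and 60.8, and in liver and kidney 0 to 10.4. All B cell values lay above all others, and replicate 4 lay far above the remaining B cells. The log2 fold change was 7.55 ± 0.32 (adjusted p = 1.87e-14), and pooled counts were 69.2-fold higher in B cells. Without replicate 4 these were 7.20 ± 0.26 (adjusted p = 3.67e-15) and 49.2-fold. In TPM, Gm29439 stood at 8344 in B cells and Cd22 at 3.95.

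Gm26857, a noncoding RNA that shares 248 exonic bases with Lyn, had 2438, 2271, 1644, 2740.4 and 2342 normalized CPM in B cells. It was not silent elsewhere, with 126 to 296 in liver, 125 to 165 in kidney and 530 to 756 in lung. The groups did not overlap, but the log2 fold change of 3.09 ± 0.20 (adjusted p = 7.25e-12) was smaller than at Cd22. Tead2, a transcription factor of the Hippo pathway, overlaps the tetraspanin gene Cd37 by 13 exonic bases and had 156 to 328 in B cells, 0 to 9.7 in liver, 0 to 3.1 in kidney and 1.94 to 26.8 in lung, a pooled difference of 33.9-fold. With so short an overlap, this row is not tied to Cd37 as closely as the others.

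Cd72, an inhibitory coreceptor of B cells, was the pair in which both rows were well covered. Tesk1, a kinase gene that shares 1423 exonic bases with it, had 748, 418, 646, 738 and 974 normalized CPM in B cells and 9.07 to 40.4 in the other 12 libraries, with lung no higher than liver or kidney. Its log2 fold change was 5.06 ± 0.26 (adjusted p = 2.06e-13). The Cd72 row itself had 461, 475, 567, 1284 and 502 in B cells, 349 to 873 in liver, 827 to 1185 in kidney and 260.0 to 677 in lung. Here the groups overlapped, although B cell replicate 4 lay above every other library. The log2 fold change was 0.01 ± 0.28 and was not called, and without replicate 4 it was -0.36. Thus, within a single locus, the Cd72 row showed no detectable difference and the Tesk1 row differed by 33.2-fold in pooled counts.

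**Figure D4:**
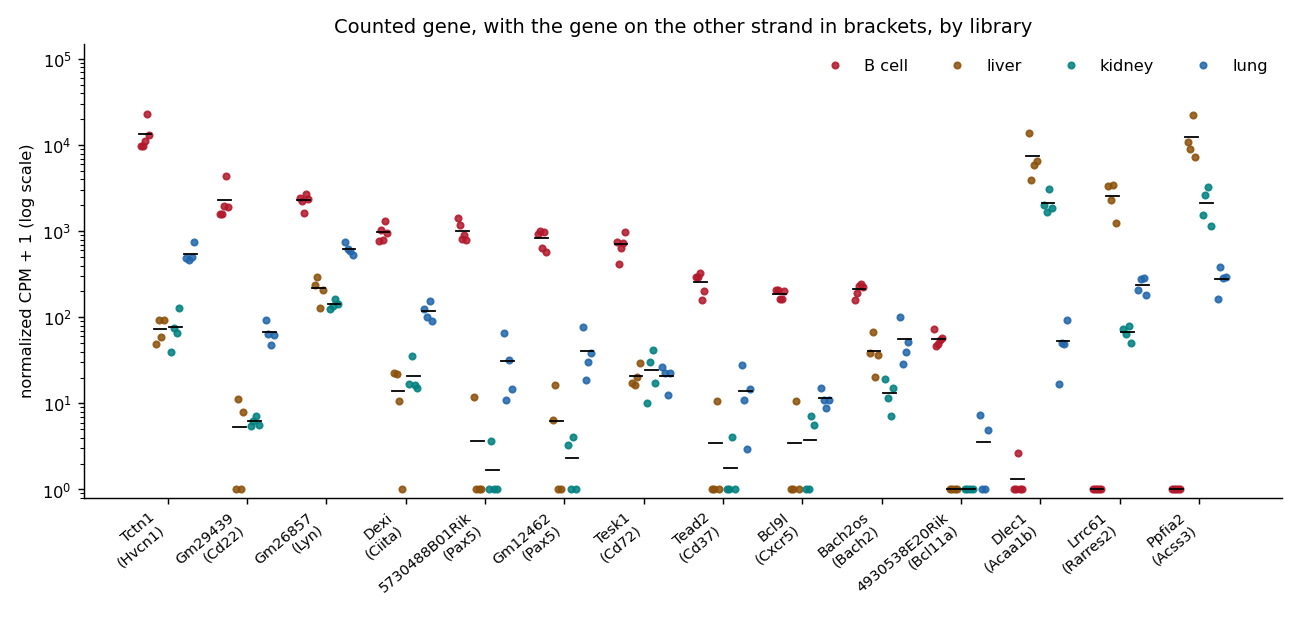
Normalized CPM + 1 (log scale) of 14 named genes in each of the 17 libraries, colored by tissue, with the gene on the other strand in brackets and black bars at the tissue means. B cells lie above all other libraries for Tctn1, Gm29439, Tesk1 and the RNAs opposite Pax5, and at or near 0 for Dlec1, Lrrc61 and Ppfia2.

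Among opposite genes of B lymphoid transcription factors, 6 of 8 tested were higher in B cells, 1 was lower and 1 was not called, compared with 32.8% higher and 30.1% lower over all genes. Against lung alone 4 of the 8 were higher and 3 lower, compared with 25.2% and 29.4% of all genes. At Pax5, the factor that commits cells to the B lineage, 3 RNAs lie on the other strand. The 5730488B01Rik RNA (chr4:44702800-44705110, forward strand) shares 636 exonic bases with Pax5 and had 1414, 1193, 804, 900.3 and 788 normalized CPM in B cells. It had 9.92 to 64.6 in lung and 0 to 10.8 in liver and kidney, and pooled counts were 62.9-fold higher in B cells (log2 fold change 7.79 ± 0.41, adjusted p = 2.13e-13). Gm12462, which shares 125 bases with Pax5, had 932, 1012, 639, 991 and 567 in B cells, 17.9 to 75.6 in lung and 0 to 15.6 elsewhere, which is 38.9-fold. In 4930517J16Rik, which lies within the Pax5 gene without sharing an exon, the difference was 32.9-fold. At all 3 RNAs the B cell libraries were near each other and above every other library, whereas Pax5 itself had 15 counts in the 5 B cell libraries and none in the other 12.

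The remaining factors gave smaller or mixed differences. Opposite Bcl11a, a zinc finger factor needed for lymphoid development, 4930538E20Rik had 45.7 to 73.1 normalized CPM in B cells, 0 in liver and kidney and 0 to 6.3 in lung, with pooled counts 40.7-fold higher. Bach2os, antisense to the transcriptional repressor Bach2, had 157 to 246 in B cells and 6.21 to 101 in the rest (log2 fold change 2.76 ± 0.27, adjusted p = 4.57e-09). The difference was smallest for Gm20402, opposite Foxo1, a factor that controls Rag expression, at 0.78 ± 0.24 (adjusted p = 0.00622), and its libraries overlapped. That call was lost without B cell replicate 4, whose value of 452 was the highest, leaving 0.43 with an adjusted p of 0.0761.

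Opposite Myb, a progenitor factor, Gm26577 was called higher than the mean of the tissues (2.89 ± 0.68), yet its 3.33 to 13.5 normalized CPM in B cells lay below the 23.8 to 31.5 of lung, and it was lower in B cells than in lung by 1.56 on the log2 scale (adjusted p = 0.00391). In liver and kidney it was at 0. Opposite the ETS factor Elf1, the splicing factor gene Wbp4 fell by 1.97 on the log2 scale, with 19.3 to 44.7 in B cells and 67.8 to 210.0 in the others. Gm43352, opposite Lef1, was not called, with 5.4 to 23.0 in B cells and 53.6 to 103 in lung.

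Promoters of 4 of these B cell genes are shown because DNase I hotspots, the stretches of open chromatin called by the authors, covered them in all 5 B cell sets and in 2 to 9 of the 15 sets of liver, kidney and lung. They were chosen after those values were seen. Others in this range are not shown, namely both promoters of Ikzf1 (5 and 9 sets), that of Cyp4f18 (5 and 8) and 1 of Coro1a (5 and 7). The 1 promoter entry for Bach2 (chr4:32417185-32417484, forward strand) was covered in 0 of 5 B cell sets and 0 of 15 others. Any other start of Bach2 had no entry, so this does not show whether the gene has an open promoter in B cells. Each run is the 250 bases before and 50 after a gene start in RefSeq GRCm38.p6, read 5′ to 3′ on the strand of the gene, all on the strand opposite to the RNAs counted. Capitals mark matches to an EBF motif (CCCNNGGGA) or an ETS motif (AGGAAGT), searched on both strands together with the octamer ATTTGCAT. The Cd22 promoter (chr7:30878979-30879278, reverse strand) was covered in 5 of 5 B cell sets and 2 of 15 others, both from lung. It holds a single stretch that matches the EBF letters on both strands. The promoter of Bcl11a (chr11:24080445-24080744, forward strand) was covered in 5 and 5 sets, that of Cd72 (chr4:43454577-43454876, reverse strand) in 5 and 9, and that of Pax5 (chr4:44710645-44710944, reverse strand) in 5 and 9.
Cd22: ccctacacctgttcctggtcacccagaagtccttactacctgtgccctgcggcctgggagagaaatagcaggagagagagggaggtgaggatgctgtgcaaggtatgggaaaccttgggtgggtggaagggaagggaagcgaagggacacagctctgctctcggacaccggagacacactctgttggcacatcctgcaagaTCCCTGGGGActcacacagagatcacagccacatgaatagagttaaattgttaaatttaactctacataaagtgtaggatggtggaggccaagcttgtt
Bcl11a: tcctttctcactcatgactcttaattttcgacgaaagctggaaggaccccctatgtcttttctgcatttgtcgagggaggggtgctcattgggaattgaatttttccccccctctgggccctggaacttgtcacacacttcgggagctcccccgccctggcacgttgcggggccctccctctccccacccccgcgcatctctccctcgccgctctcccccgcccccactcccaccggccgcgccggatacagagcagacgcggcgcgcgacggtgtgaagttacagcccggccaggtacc
Cd72: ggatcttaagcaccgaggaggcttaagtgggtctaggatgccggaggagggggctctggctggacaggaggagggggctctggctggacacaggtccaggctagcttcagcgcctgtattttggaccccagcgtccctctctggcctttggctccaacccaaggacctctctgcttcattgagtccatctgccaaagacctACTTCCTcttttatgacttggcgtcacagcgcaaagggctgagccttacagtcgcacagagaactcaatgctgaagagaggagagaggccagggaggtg
Pax5: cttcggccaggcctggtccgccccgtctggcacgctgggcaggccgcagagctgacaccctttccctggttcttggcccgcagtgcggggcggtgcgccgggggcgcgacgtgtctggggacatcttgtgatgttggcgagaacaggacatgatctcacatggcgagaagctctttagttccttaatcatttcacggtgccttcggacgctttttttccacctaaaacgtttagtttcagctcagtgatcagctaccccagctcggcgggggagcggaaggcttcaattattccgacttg
Of 24 genes opposite or next to named genes, 19 had a promoter entry, with 22 promoters in all. The EBF letters were in 3 of the 22 and in 6.56% of 32851 promoters, the ETS letters in 6 and in 9.35%, and the octamer in 0 and in 1.74%. Hvcn1, Lyn, Ciita, Cxcr5 and Gm10260 had no entry.

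The V(D)J recombination list could be tested at 1 opposite gene only. Suv39h2, a histone methyltransferase gene that shares 357 exonic bases with Dclre1c, which encodes the nuclease Artemis, had 94.4 to 206 normalized CPM in B cells and 29.1 to 88.2 elsewhere (log2 fold change 1.24 ± 0.24, adjusted p = 9.31e-05). On their own rows none of the 7 listed genes could be tested, and Rag1 had no counts in B cells.

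Of 10 listed MHC class II genes, 7 had too few counts to be tested and the 3 tested were higher in B cells, as were both tested opposite genes, compared with 32.8% of all tested genes. Of these 5 calls, that of Ciita changed with the libraries used and that of Brd2 could not be given to a single gene. Cd74 and H2-Ab1 passed the filter on counts only through B cells. For them the filter largely fixed the direction of the call, and the count of tested genes cannot be weighed against the share of all genes. Dexi, which shares 329 exonic bases with the class II transactivator Ciita, had 775, 1048, 799, 1329 and 955 normalized CPM in B cells, 0 to 21.5 in liver, 14.02 to 34.5 in kidney and 90.3 to 153 in lung. No B cell library overlapped the rest, and the log2 fold change was 4.92 ± 0.26 (adjusted p = 2.49e-13). Ciita itself had 25.0 to 43.3 in B cells and 0 to 39.4 in the others, which overlapped, at 1.04 ± 0.40 (adjusted p = 0.0283), a call that was lost when any of several single libraries was left out and with hybrid as a covariate (0.85, adjusted p = 0.0738). Brd2, a bromodomain gene, shares 360 exonic bases with H2-DMa, which loads peptides onto class II molecules, and 405 with CR974462.3, so its log2 fold change of 2.47 ± 0.34 cannot be given to either.

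Cd74, the invariant chain of class II, has no overlapping gene on the other strand and was read on its own row. It had 16.2, 29.9, 56.6, 276 and 29.7 normalized CPM in B cells and 0 to 4.73 in the 12 other libraries. The groups did not overlap, although replicate 4 was far above the rest, and pooled counts were 40.4-fold higher. Without replicate 4 the pooled difference was 13.1-fold, and Cd74 no longer passed the filter on counts, so it was not tested. H2-Ab1, a class II beta chain, had 10.8, 22.8, 66.6, 126 and 40.5 in B cells and 0 to 21.5 elsewhere (log2 fold change 3.49 ± 0.53, adjusted p = 4.39e-06), and replicate 4 was again highest. With that library H2-Ab1 was 14.5-fold higher in pooled counts, and without it 8.21-fold and not tested, for the same reason.

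Of 4 opposite genes of leukocyte genes in general, 2 were higher in B cells, 1 was lower and 1 was not called, against 32.8% higher and 30.1% lower of all genes. Bcl9l, a coactivator of Wnt signaling, overlaps the follicle-homing receptor Cxcr5 by 110 exonic bases and the unnamed gene Gm47205 by 662. It had 161 to 207 normalized CPM in B cells and 0 to 14.2 in the other libraries, a pooled difference of 28.7-fold. Opposite Dock2, a guanine nucleotide exchange factor for lymphocyte migration, 4930403D09Rik had 54.0 to 84.2 in B cells, 0 to 4.67 in liver and kidney and 5.89 to 22.1 in lung. Gm15628, opposite the actin-bundling gene Lcp1, was lower in B cells at -1.56 ± 0.50 (adjusted p = 0.00881), and was highest in lung. Bola2, which overlaps the actin regulator Coro1a by only 26 exonic bases and Slx1b by 360, was not called at 0.31 ± 0.22. Among these genes on their own rows, the sphingosine phosphate receptor gene S1pr1 was higher in B cells, at 2.37 ± 0.45.

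On the rows of receptor and surface genes themselves, 4 of 6 tested were higher in B cells (32.8% of all tested genes), 1 was lower and Cd72 was not called. Of the 4, Ighm, Iglc3 and Cd38 passed the filter on counts only through B cells. The filter largely fixed the direction of their calls, so the count cannot be weighed against that share. Ighm, the constant region of the IgM heavy chain, had 41.9, 35.2, 49.9, 49.2 and 18.9 normalized CPM in B cells, from 7 to 45 counts per library, and no counts in the other 12 libraries. Pooled counts were at least 60.4-fold higher in B cells, taking 3 counts over the 12 libraries as the floor. Cd38, an ectoenzyme on B cells, had 135, 139, 188, 246 and 80.9 in B cells, 0 in liver and up to 9.81 in kidney and lung, and was 35.5-fold higher in pooled counts. Both genes stood apart from every other tissue without overlap.

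Iglc3, a lambda light chain constant region, had 41.9, 51.0, 58.2 and 88.6 normalized CPM in replicates 1 to 4 and 2.7 in replicate 5, the B6xSPRET hybrid, which thus fell within the 0 to 5.95 of lung. Reads of lambda constant regions can be shared between near-identical copies, so its level is uncertain. Fcer2a, the low-affinity IgE receptor, had 28.4 to 48.6 in B cells and 0 to 38.8 elsewhere (1.43 ± 0.37, adjusted p = 0.00170). Cr2, the complement receptor of mature B cells, was lower in B cells at -0.90 ± 0.33 (adjusted p = 0.0205), with overlapping values of 17.5 to 83.6 and 37.3 to 111, and lost its call without any of B cell replicates 1, 3 and 4. Of 4 transcription factor genes tested on their own rows, 2 were higher, 1 was lower and 1 was not called (32.8% higher and 30.1% lower over all genes). Ebf1 had 18.9 to 42.2 in B cells and 0 to 11.03 elsewhere (4.40 ± 0.65, adjusted p = 5.24e-06), and Ets1 had 50.3 to 89.9 and 0 to 34.7 (2.42 ± 0.35, adjusted p = 2.42e-06). Bcl6 was lower (-2.34 ± 0.91, adjusted p = 0.0287), with 0 to 2.70 in B cells and 169 to 306 in liver. Elf1 was not called (-0.45 ± 0.30). Ebf1 passed the filter only through B cells and Bcl6 only through liver.

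Among genes with a B cell mean of at least 100 CPM, the 15 with the largest fitted log2 fold change were named. This order depends on the prior count where a tissue is at 0, so pooled folds are given. They included Gm29439 and the 3 RNAs opposite Pax5. Of the others, Gm12679, an antisense RNA on chromosome 4 opposite the antisense gene Gm12493, had 86.6, 163, 263, 293 and 78.2 normalized CPM in B cells and 0 in all others, which makes it at least 278-fold higher against a floor of 3 counts over the 12 libraries. Ms4a6c, of the membrane-spanning 4A family, opposite BE692007, had 464, 473, 378, 406 and 461 in B cells, 5.83 to 34.7 in lung and 0 elsewhere, or 44.8-fold. These levels were close to each other among the 5 B cell libraries.

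Several of the 15 lie at lymphoid genes by gene body or by position. Gm15872 lies within Traf3ip3, an adaptor of lymphocytes, and was 24.1-fold higher in pooled counts, and Gm12000 lies within Ikzf1, which encodes Ikaros, and was 18.5-fold higher. Gm45694 lies 1329 bases from Cyp4f18, a leukotriene-metabolizing enzyme of leukocytes, and was 44.4-fold higher.

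Another group lay together on chromosome 16 beside the lambda light chain genes. Iglv3, a lambda variable segment, had 177, 186, 189.7, 338 and 246 normalized CPM in B cells, 9.71 to 17.9 in lung and 0 to 10.4 elsewhere, a 29.3-fold difference. The overlapping genes Gm42870 and Gm43388 nearby were higher in B cells on both strands, by 69.8-fold and 20.9-fold. Gm42870 was the more abundant, with 712 to 1583 in B cells against 77.7 to 159.9 for Gm43388. Kcng1, a modulatory potassium channel subunit, and the pseudogene Nxpe1-ps had no gene on the other strand within 5 kb and were 92.9-fold and 77.6-fold higher in B cells.

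The most abundant rows in B cells were not B cell genes. Apart from Tctn1, the 10 with the highest mean CPM lay opposite pseudogenes, noncoding RNAs, the histone gene H3f3a and the coding gene Gm10260, and reads of pseudogenes may come from several copies, so these counts are uncertain. Gm17300 also shares exons with the coding gene Rcc1 and Gm17494 with Gclm. Gm17300, opposite the small nucleolar RNA host Snhg3, led with 16789 to 67350 normalized CPM in B cells and 7527 to 114629 elsewhere, and was not called. With hybrid as a covariate and without the B6xCAST library it was called higher (1.47, adjusted p = 0.0126), as were Gm44510 (1.10, adjusted p = 0.0199) and Gm5148 (0.91, adjusted p = 0.0297). Of the 9, Gm26619 (0.96 ± 0.34, adjusted p = 0.0174), Gm42418 (0.96 ± 0.36, adjusted p = 0.0236) and Gm17275 (0.85 ± 0.32, adjusted p = 0.0251) were called higher, all with overlapping libraries. Gm42418 lies opposite a ribosomal RNA gene and had 24800.4 in B cell replicate 5. Without that library its log2 fold change was 0.47, with an adjusted p of 0.266. Gm37376, opposite the nuclear RNA Malat1, had 3425 in replicate 4 and 9678 to 18182 in the other B cells. With that covariate it was called lower, at -1.22 (adjusted p = 0.0156).

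Of the genes lower in B cells, 623 had a mean of at least 100 CPM over the other tissues, and the 6 with the most negative fold were named. All 6 shared exons with an opposite gene. Ppfia2, a synaptic scaffold gene, shares 2436 exonic bases with Acss3, a mitochondrial acyl-CoA synthetase. It had no counts in any B cell library, 7273 to 22146 normalized CPM in liver, 1138 to 3250.4 in kidney and 164 to 379 in lung, which makes B cells at least 2661-fold lower. A hotspot lay within 1 kb of an Acss3 start in 0 of 5 B cell sets and 15 of 15 others.

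Lrrc61 shares 892 exonic bases with Rarres2, which encodes the secreted protein chemerin. It also had no counts in B cells, 1260.2 to 3442 normalized CPM in liver, 49.1 to 77.6 in kidney and 181 to 286 in lung, at least 543-fold lower in B cells, and a hotspot lay at a Rarres2 start in 0 of 5 B cell sets and 15 of 15 others. Dlec1 lies opposite Acaa1b, a peroxisomal thiolase of liver, and had 1 count in B cells, so that it was 6054-fold lower (95% counting interval 1086 to 239143). At Acaa1b, unlike Acss3 and Rarres2, hotspots lay at the start in all 5 B cell sets as well as in the 15 others. The remaining 3 lie opposite the processed pseudogene Gm7049 (Gm48795, 4 counts in B cells, 1411-fold lower), Cped1 (Gm26719, 2 counts, 2038-fold lower with an interval of 564 to 16835) and the forkhead factor Foxq1 (A530084C06Rik, 0 counts, at least 342-fold lower). Of these, Gm26719 was highest in lung, at 1017 to 2938, and A530084C06Rik in kidney, at 449 to 949.

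Markers of other cell types that the marrow or the gate could hold were read in the same way. None of 10 T and NK cell genes or 5 plasma cell genes could be tested, and summed T and NK genes came to 2.7 to 16.6 normalized CPM in B cells, with 7 of the 10 at 0. Of 12 neutrophil and myeloid genes, 6 had no counts in B cells, among them S100a8, Elane, Mpo and Lyz2. The list nevertheless summed to 170 to 216 normalized CPM in B cells, 213 to 358 in liver, 255 to 326 in kidney and 156 to 295 in lung. Nearly all of this was Csf1r, the receptor of macrophage colony-stimulating factor, with 167 to 214 in B cells and 132 to 358 elsewhere, which was not called (-0.38 ± 0.20, adjusted p = 0.104). Both tested opposite genes of that list were higher in B cells than the mean of the tissues, as were 32.8% of all tested genes. These were Plppr3, opposite the neutrophil protease Prtn3, with 179 to 467 in B cells and 14.1 to 199 elsewhere (1.34 ± 0.29, adjusted p = 3.56e-04), and Hmgxb3, opposite Csf1r (1.01 ± 0.38, adjusted p = 0.0232). Neither was called higher than in lung, and only 1 of them was called higher than in liver. Apex2, opposite the erythroid gene Alas2, was lower in B cells at -3.06 ± 0.52 (adjusted p = 2.01e-05) and varied from 4.06 to 113 among them. The part of residual marrow cells in the B cell values was not tested.

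Summed markers of liver, kidney and lung were each lower in B cells than in their own organ, a description without a test. Summed hepatocyte genes came to 1.35 to 5.4 normalized CPM in B cells and 1765 to 8835 in liver. Nephron genes came to 10.8 to 26.6 in B cells, 5.39 to 46.7 in liver, 5.89 to 33.7 in lung and 294 to 515 in kidney. Opposite genes of nephron genes came to 0 to 6.66 in B cells and 9528 to 20961 in kidney. Summed alveolar and airway genes came to 0 to 13.1 in B cells and 137 to 402 in lung. Gm15396, opposite the aspartic protease gene Napsa of that list, had 195 to 533 in B cells, 106 to 276 in lung, 3264 to 8044 in kidney and 0 to 9.7 in liver. Against the mean of the tissues it was not called (0.87 ± 0.40, adjusted p = 0.0591), whereas against liver it was higher and against kidney lower.

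Replication histone rows were highest in a single B cell library. Of 11 tested opposite genes of replication histones, 8 were higher in B cells, 0 were lower and 3 were not called (32.8% higher and 30.1% lower over all genes), with a median log2 fold change of 1.31. Without replicate 4, 3 of the 10 that could be tested were higher and the median was 0.52. Against lung 9 of the 11 were higher (25.2% of all genes), and 6 of 10 without replicate 4. Against liver 4 were higher and 2 lower (29.9% and 28.0% of all genes), and 2 and 2 of 10 without it. Their sum was 8492, 7542, 7606, 34079.5 and 16105 normalized CPM in B cell replicates 1 to 5, compared with 11917 to 31823 in liver, 6474 to 10273 in kidney and 1896 to 7310.3 in lung. Replicate 4 thus held more than all other libraries and the other B cells overlapped liver and kidney. Gm44341 and Gm47311 of this list had identical values in every library, and histone genes are near-identical copies, so the split among them is uncertain. On their own rows 3 of 5 tested histone genes were higher in B cells (2 of 3 without replicate 4), among them the linker histone genes Hist1h1c (1.73 ± 0.31) and Hist1h1d (2.37 ± 0.37). The opposite genes of the other proliferation genes, 1 of 4 tested, summed to 290, 264, 293, 642 and 453 normalized CPM in B cell replicates 1 to 5. They summed to 436 to 598 in liver, 331 to 549 in kidney and 120 to 332 in lung, so replicate 4 was again highest. On their own rows the proliferation genes did not set replicate 4 apart, with sums of 55.5, 31.6, 84.9, 85.3 and 86.3 normalized CPM in B cell replicates 1 to 5, 21.5 to 51.9 in liver, 42.1 to 63.5 in kidney and 58.3 to 69.5 in lung. Only 2 of the 20 listed genes had enough counts there to be tested. Of these, Mcm7, a replicative helicase subunit, was higher in B cells (0.81 ± 0.34, adjusted p = 0.0401), Mki67, a nuclear protein of dividing cells, was not called (0.59 ± 0.47) and had 8.12 to 16.2 in B cells and 29.8 to 36.9 in lung, and Ap4m1, opposite Mcm7, did not differ detectably (-0.01 ± 0.25).

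Open chromatin offered a readout independent of the RNA tables. Hotspots were deposited as 1 pooled set for each hybrid and tissue, 5 of B cells and 15 of the other tissues, including the B6x129 hybrid that has no RNA table here. For the 814 genes higher in B cells with an overlapping opposite gene, a hotspot lay within 1 kb of a start of the opposite gene for 89.8 ± 1.08% (SD, n = 5 sets) in B cells and 89.0 ± 1.43% (n = 15) in the others. For the 964 such genes lower in B cells it was 77.0 ± 4.90% and 91.0 ± 1.70%. Over all 2817 pairs it was 84.0 ± 2.82% and 90.3 ± 1.24%. B cell sets thus had hotspots at fewer opposite starts over all pairs, and this difference was present for genes lower in B cells and not for those higher. At own starts of the 814 higher genes it was 74.5% in B cells and 79.4% in the others. In every hybrid the study lists fewer hotspots for B cells than for the other tissues, which bears on all these percentages.

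Since starts of paired genes can lie close together, pairs with starts over 2 kb apart were also examined. For higher genes, a hotspot lay at the opposite start for 89.2% in B cells and 87.9% in the others, and at the gene's own start for 71.7% and 77.7%. For lower genes these were 75.5% and 90.2% at the opposite start and 63.0% and 74.7% at the own start. Over all tested pairs of this kind they were 82.7% and 89.3% at the opposite start and 67.1% and 76.4% at the own start. Thus for genes higher in B cells, B cell sets were not below the others at the opposite start. At the own start B cell sets were below the others, but by less than over all such pairs. Sets of 1 tissue share their cells' chromatin and genes are not replicates, so no test was made.

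**Figure D5:**
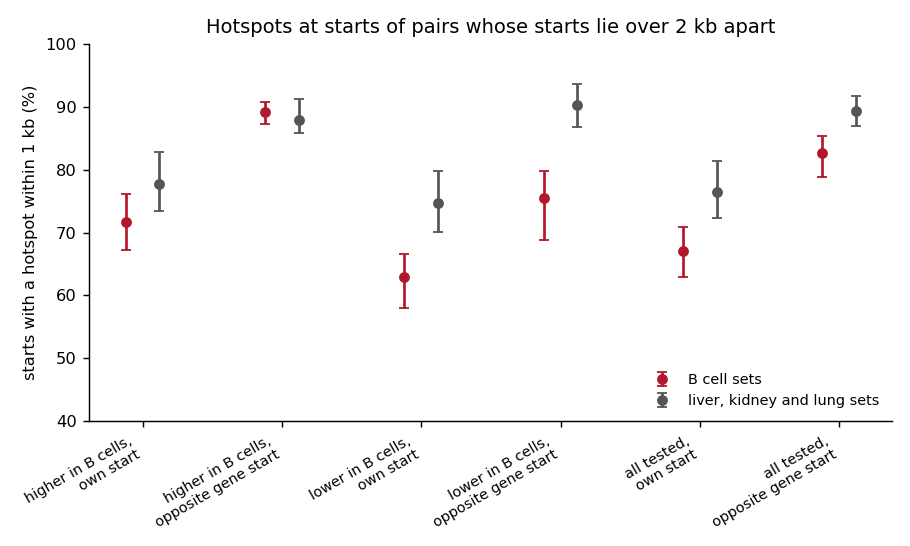
Percentage of gene starts with a DNase I hotspot within 1 kb, as the mean (point) and the lowest to highest set (line) over 5 B cell sets and 15 sets of liver, kidney and lung, for pairs of genes whose starts lie over 2 kb apart. B cell sets reach 89.2% at opposite starts of genes higher in B cells and 75.5% at those of genes lower, where the other sets reach 87.9% and 90.2%.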

How the data were processed

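The authors mapped RNA-seq reads of stranded total RNA libraries with STAR to mm10 and deposited, for each sample, an RSEM table of expected counts and TPM per gene. The strand setting and annotation of the counting are not given in the sources used here. DNase-seq hotspots were deposited as sets pooled over the samples of a hybrid and tissue, with the −log10 of the FDR by the authors at 5%. Tools and build follow the submitters' processing notes and the methods.

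Gene positions came from GENCODE vM21, which held 53620 of the 53715 gene IDs. Opposite genes shared at least 1 exonic base on the other strand, else overlapped in gene body, else lay within 5 kb. Expected counts were rounded to whole numbers and tested with edgeR (quasi-likelihood, TMM, filterByExpr) in a fit of all 17 samples, with Benjamini-Hochberg adjusted p under 0.05. The SE is that of the fitted log2 fold change. Pooled folds divide summed counts by summed effective library sizes, with a floor of 3 counts over the group and exact Poisson intervals of 95%, which cover counting error only. TPM was used to compare genes, and hotspots were counted within 1 kb of gene starts. The test was checked on simulated data.

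Members, gene lists and motifs were chosen with earlier results of these data known. Named were, of genes called higher whose B cell mean was at least 100 CPM, the 15 that rose most, the 10 with the highest B cell mean, the 6 with the most negative change among called genes of at least 100 CPM elsewhere, at most 15 opposite genes and at most 10 members of the B-lineage lists by B cell mean, and genes named as chosen afterwards. Further list members are given with their list. Some of the named genes and list members are not reported here. Alternatives were DESeq2 size factors, the DESeq2 Wald test, limma on log2(TPM + 1), other filters, hybrid as a covariate, values within hybrids, B cells with a single tissue, other windows, a stricter FDR and leaving out each library. Hotspots of embryonic stem cells and allelic data were not used here. Versions were R 4.3.3, edgeR 4.0.16, limma 3.58.1, DESeq2 1.42.0, Python 3.11.15, pandas 2.3.3, numpy 2.4.6, scipy 1.17.1 and matplotlib 3.10.9.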

Additional observations from a re-analysis of the deposited data

Results flagged for a closer look

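In 5 of 75 sets of 5 B cell values examined, a single library lay far from the others by Dixon's criterion at 95%, which chance alone gives in about 1 in 20. B cell replicate 4 had 4376 normalized CPM of Gm29439, opposite Cd22, where the B cell median was 1897. In the same library Cd72 had 1284 against a median of 502, and the replication histone genes on their own rows summed to 2061 against 584. B cell replicate 5, the B6xSPRET hybrid, had 2.7 of Iglc3 against a median of 51.0. B cell replicate 3 had 1.66 of Dlec1, a single count, where the median was 0.

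For 5 named genes the log2 ratio of B cells to the other tissues had opposite signs in different hybrids, and the difference between hybrids was not tested, since a hybrid has 1 or 2 libraries per tissue. Gm20402, opposite Foxo1, was at -0.18 in B6xSPRET and 1.72 in B6xC3H, and Bola2 was at -0.25 and 0.66 in these hybrids. Cd72 was at -0.17 in B6xSPRET and 0.53 in B6xC3H. Cr2 was at -1.42 in B6xC3H and 0.052 in B6xSPRET. Ciita was at -0.19 in B6xPWK and 2.72 in B6xSPRET.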

How the results depend on the processing

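Of 214 counts of genes computed under alternatives, 204 were within 1.5 times the reported count. With no filter on counts, 28412 genes were tested, and 3140 were higher and 2186 lower in B cells than the mean of the tissues, 2403 higher and 2295 lower than in liver, 1936 higher and 3180 lower than in kidney, and 3476 lower than in lung. With limma on log2(TPM + 1), 2652 genes were higher and 648 lower in B cells than in liver, and the median log2 fold change of all genes moved from 0.01 to 0.67, so such changes are relative to that shift. With B cells and liver alone in the fit, 795 of 2847 genes were lower. A window of 2 kb gave hotspots at 91.7% of opposite starts of higher genes in B cell sets and 91.3% in the others, and a window of 500 bp gave 88.4% and 86.8%.

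Leaving out each library in turn gave 1301 to 1665 genes higher and 1282 to 1517 lower than the mean of the tissues, 1207 to 1465 and 1197 to 1384 against liver, 1135 to 1452 and 1384 to 1703 against kidney, and 1014 to 1204 and 1243 to 1691 against lung, with 14 to 18 opposite genes of B-lineage genes higher. Without B cell replicate 4 it was 14.

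Of 1360 values of the 53 named genes under alternatives, 1287 kept their direction and side of the threshold, 24 lost and 29 gained a call, and 20 changed sign. Of 45 called genes, 5 lost their call under some alternative, namely Gm17275, Gm42418, Gm20402, Cr2 and Ciita. The sign changed for Gm20402 and Bola2 within B6xSPRET (-0.18 and -0.25), Cr2 within B6xSPRET (0.052), Ciita within B6xPWK (-0.19) and Gm17494 with limma (0.26). Cd72, at 0.01 in the reported fit, was at -0.023 with a filter of 10 counts, -0.058 within B6xPWK, -0.17 within B6xSPRET and from -0.36 to 0.14 when a library was left out. With limma it was called, at 0.70 (adjusted p = 0.0321), beside that median of 0.67 over all genes, and within B6xC3H it was at 0.53. Cd74 and H2-Ab1 gave no value without any of B cell replicates 2 to 5, and Ighm and Iglc3 none without any of replicates 1 to 4 or with the hybrid covariate, since they then failed the filter on counts. With hybrid as a covariate 1323 genes were higher and 1294 lower than the mean of the tissues, and 15 of 19 opposite genes of B-lineage genes were higher. Chosen after the data were seen, leaving out B cell replicate 4 gave 3 opposite genes of replication histones higher than the mean of the tissues in place of 8, 2 in place of 4 against liver and 6 in place of 9 against lung. The cause of these changes was not tested. No paired analysis was possible because the labels give the libraries no replicate numbers and a hybrid holds 1 or 2 libraries per tissue, so libraries were matched on hybrid alone, through that covariate and the values within hybrids. The low counts per library limit the tests to abundant rows.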
